A study of Gallus gallus with 12 samples.

Results

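SBK2, LRRC30, FAM46B, ARRDC3 and TOB1 are 5 genes of breast muscle about which little has been written in this tissue. They were chosen from earlier results of these same arrays, from among genes that differed between affected and normal muscle, and each is represented by its brightest array row. All 5 were found, each with exactly 1 transcript cluster (a set of array features that reads 1 transcript region), out of 11528 genes with a single symbol and 20804 clusters. The muscle was the Pectoralis major, the large pale breast muscle, of 12 Ross 708 broilers from 1 flock, taken after slaughter. The flock was grown to an average live weight of 3.7 kg, and no bird age was given. The 6 affected birds had a white striping / wooden breast phenotype, a disorder with white streaks and a stiff fillet, and the 6 normal birds had fillets without it. No treatment or genetic change separated the groups, and all birds are labelled male. Each bird gave 1 array, and every level below is a log2 value as deposited, so that a difference of 1 is a 2-fold change in signal.

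The 5 genes have different jobs. SBK2 belongs to a small family of serine/threonine kinases named after an SH3-binding relative, and in mice it is known mainly from atrial heart muscle. LRRC30 is a leucine-rich repeat protein whose transcript is enriched in human skeletal muscle and whose function is not established. FAM46B, also called TENT5B, is a non-canonical poly(A) polymerase, an enzyme that lengthens the adenosine tail of messenger RNA and so tends to stabilise it. ARRDC3 is an alpha-arrestin, an adaptor that links membrane receptors, beta-adrenergic receptors among them in mouse and human cells, to ubiquitin ligases of the NEDD4 family. TOB1 is an antiproliferative protein of the BTG/TOB family that brings the CCR4-NOT deadenylase to messenger RNA, where the tail is shortened.

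In affected muscle SBK2, FAM46B and TOB1 were at lower mean levels and LRRC30 and ARRDC3 at higher ones. These differences are what the genes were chosen for, so they are given as a description and without a test. In limma's fit over all clusters 1.14% passed an adjusted p of 0.05, 0.63% higher and 0.514% lower in affected muscle. All 5 genes were among them, 2 higher and 3 lower, which the choice itself brings about. Complete separation of the 6 affected from the 6 normal birds was seen for 2.17% of all clusters, 1.06% with affected birds above and 1.11% below. It was seen for 2 of the 5 genes, a count that the choice of the genes also favours. In bulk tissue, fewer cells that carry a transcript and less transcript per cell cannot be told apart.

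**Figure D1:**
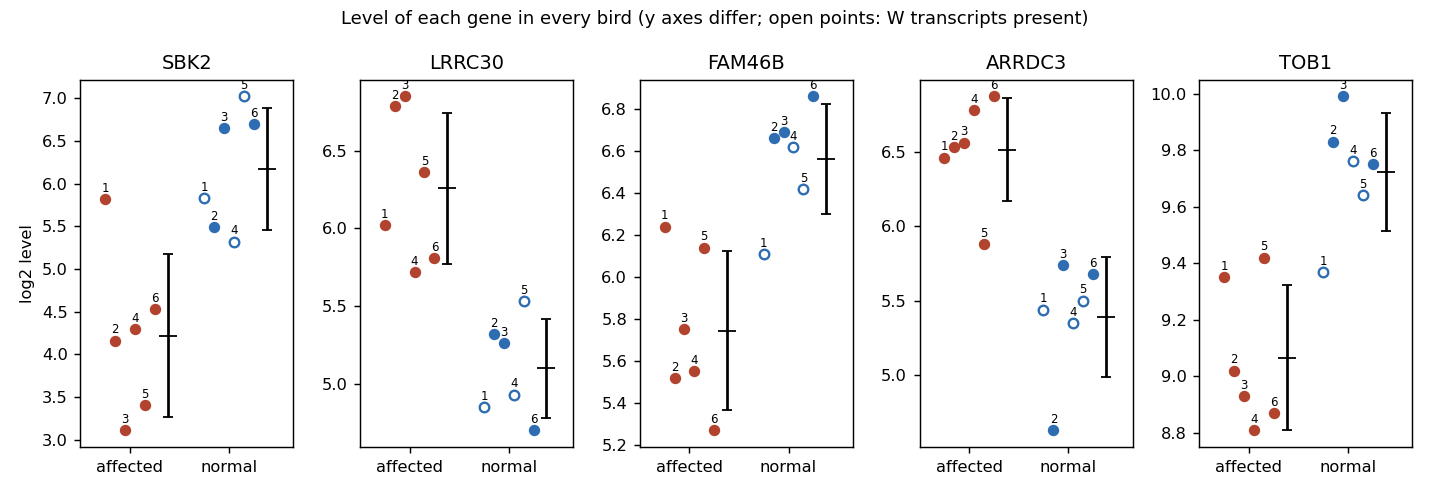
Log2 level (y axis, a separate scale per panel) of the 5 genes in every bird. Points are birds with their number, affected left and normal right, open points are the 3 normal birds whose arrays carry W-chromosome transcripts, and the black marks are the mean ± SD (n = 6). LRRC30 and ARRDC3 separate the groups, while affected bird 1 lies among the normal birds for SBK2 and affected birds 1 and 5 do so for FAM46B.

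The kinase SBK2 had the widest difference of the 5. Its level in affected birds 1 to 6 was 5.82, 4.16, 3.11, 4.29, 3.40 and 4.53, against 5.83, 5.49, 6.65, 5.32, 7.02 and 6.70 in normal birds 1 to 6. Affected bird 1 sat inside the normal range, and the other 5 affected birds lay below every normal bird. The mean was 4.22 ± 0.96 in affected and 6.17 ± 0.71 in normal muscle (SD, n = 6 each), a difference of -1.95 that corresponds to 0.259 of the normal signal and ranked 31 among the falls of all clusters. The affected mean was close to the array medians of 4.05 to 4.16, and affected birds 3 and 5 lay below them, so the ratio is uncertain. SBK2 also varied most from bird to bird, with a range from 3.11 to 5.82 in affected and from 5.32 to 7.02 in normal muscle. Without affected bird 1 the difference was -2.27.

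The repeat protein LRRC30 showed the opposite direction. Affected birds 1 to 6 had 6.02, 6.79, 6.85, 5.72, 6.36 and 5.81, against 4.85, 5.32, 5.26, 4.93, 5.53 and 4.70 in normal birds. The lowest affected bird, number 4, was above the highest normal bird, number 5. Means were 6.26 ± 0.49 in affected and 5.10 ± 0.32 in normal muscle (SD, n = 6 each), a difference of 1.16 or 2.24-fold. Within the affected group birds 2, 3 and 5 were the highest for LRRC30, and birds 2 and 3 were the most alike, at 6.79 and 6.85.

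The poly(A) polymerase FAM46B was lower in affected muscle. Affected birds 1 to 6 had 6.24, 5.52, 5.75, 5.55, 6.14 and 5.27, against 6.11, 6.66, 6.69, 6.62, 6.42 and 6.86 in normal birds. The overlap came from normal bird 1, the lowest of its group, which affected birds 1 and 5 exceeded, and the other 4 affected birds lay below all normal ones. The mean was 5.74 ± 0.38 in affected and 6.56 ± 0.26 in normal muscle (SD, n = 6 each), a difference of -0.82, or 0.568 of the normal signal.

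The arrestin ARRDC3, which lies on the Z chromosome, separated the groups. Affected birds 1 to 6 had 6.46, 6.53, 6.56, 6.78, 5.88 and 6.87, against 5.44, 4.63, 5.74, 5.35, 5.50 and 5.68 in normal birds. Affected bird 5 was nearest to the normal range, and normal bird 2 stood below its group. Means were 6.51 ± 0.35 in affected and 5.39 ± 0.40 in normal muscle (SD, n = 6 each), a difference of 1.12 or 2.18-fold, and 0.97 without normal bird 2.

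TOB1 was the gene with the narrowest difference and the least spread between birds. Its level in affected birds 1 to 6 was 9.35, 9.02, 8.93, 8.81, 9.42 and 8.87, against 9.37, 9.83, 9.99, 9.76, 9.64 and 9.75 in normal birds. Only affected bird 5 reached the normal range, above normal bird 1, and affected bird 1 fell just short of it. The mean was 9.07 ± 0.26 in affected and 9.72 ± 0.21 in normal muscle (SD, n = 6 each), a difference of -0.66, or 0.634 of the normal signal.

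The arrays of normal birds 1, 4 and 5 (W-positive) carried transcripts of the female-specific W chromosome, against their label, with HINTW between 8.51 and 9.41 on these 3 arrays and between 2.46 and 2.99 on the other 9. SBK2 in affected birds 3 and 5 (3.11 and 3.40) came near those low HINTW values, although a level read by other probes is no measured background for SBK2. Array medians ran from 4.05 to 4.16. Fast skeletal muscle markers were high as a list, their mean over 5 measured of 10 listed running from 10.04 to 10.88 in affected and from 10.24 to 10.52 in normal birds. Single markers of this list ran from 4.78 to 12.62, the lowest not far above the array medians. For markers of other cells, the mean of 4 measured fibroblast markers ran from 8.36 to 9.91 in affected and from 6.31 to 8.81 in normal birds, and that of 4 macrophage markers from 5.85 to 7.19 in affected and from 5.28 to 6.20 in normal birds. Endothelial markers (5 measured) ran from 6.38 to 6.62 in affected and from 6.33 to 6.89 in normal birds, adipocyte markers (3) from 6.38 to 7.0 in affected and from 6.11 to 6.65 in normal birds, red blood cell markers (2) from 6.33 to 8.02 in affected and from 5.99 to 7.05 in normal birds, and smooth muscle markers (2) from 4.20 to 4.87 in affected and from 4.16 to 4.76 in normal birds. The mean difference, affected minus normal, was 1.16 for fibroblast markers (4 of 4 above 0) and 0.54 for macrophage markers (4 of 4). It was 0.47 for red blood cell (2 of 2), 0.34 for adipocyte (2 of 3) and 0.11 for fast muscle markers (2 of 5). It was 0.04 for smooth muscle (2 of 2) and -0.06 for endothelial markers (2 of 5). The group ranges of every one of these lists overlapped, and no single marker of the 7 lists passed limma's adjusted p of 0.05. The part of these markers in the differences of the 5 genes was not tested.

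Leaving out the 3 arrays with W transcripts left each of the 5 differences as large or larger. It was -2.06 for SBK2, 1.17 for LRRC30, -0.99 for FAM46B, 1.16 for ARRDC3 and -0.79 for TOB1, each with 6 affected and 3 normal birds. Normal bird 1, the only normal bird that any affected bird exceeded for FAM46B and TOB1, was among the arrays left out. Within the normal group the Z-linked ARRDC3 averaged 5.43 ± 0.07 in birds with W transcripts and 5.35 ± 0.62 in those without (SD, n = 3 each). FAM46B averaged 6.38 ± 0.26 in normal birds with W transcripts and 6.74 ± 0.11 in those without, and TOB1 averaged 9.59 ± 0.20 with and 9.86 ± 0.12 without them (SD, n = 3 each). These small groups were not compared by a test. SBK2 (6.06 ± 0.87 with, 6.28 ± 0.69 without) and LRRC30 (5.10 ± 0.37 with, 5.09 ± 0.34 without) lay within their spread.

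Whether the 5 genes vary together from bird to bird is a question that the group difference does not answer, so it was asked inside each group. MB (myoglobin, the oxygen store of red fibres) and CSRP3 (a muscle LIM protein of the Z-disc), the genes with the top rises of all clusters, served as partners. The 7 genes form 21 pairs in each group of 6 birds. Each Pearson r and Spearman rho was set against all 720 pairings of the birds (exact permutation, two-sided), with Benjamini-Hochberg adjustment across the 42 relations. None of the 42 passed an adjusted p of 0.05 by r or by rho, so the values that follow describe these birds. The smallest adjusted value by r, 0.0583, was that of MB with CSRP3 in affected birds, whose exact permutation p of 0.00139 is the smallest that 720 pairings can give. By rho the same pair had the smallest adjusted value, 0.117. A single pair could therefore not pass however strong its relation, so the absence of passing pairs does not show that the genes vary independently. Unadjusted exact p-values under 0.05 were found by r for 5 pairs in affected and 2 in normal birds, and by rho for 6 in affected and 0 in normal birds. In affected birds MB and CSRP3 had a rho of 1.0 with each other, so by rho their pairs with the same gene repeat each other. The signs of r matched between the groups for 15 of the 21 pairs. Some of these signs rest on an r near 0, such as -0.02 for ARRDC3 with TOB1 in normal birds. The pairs also share genes, so the count is a description and no measure of agreement between the groups.

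**Figure D2:**
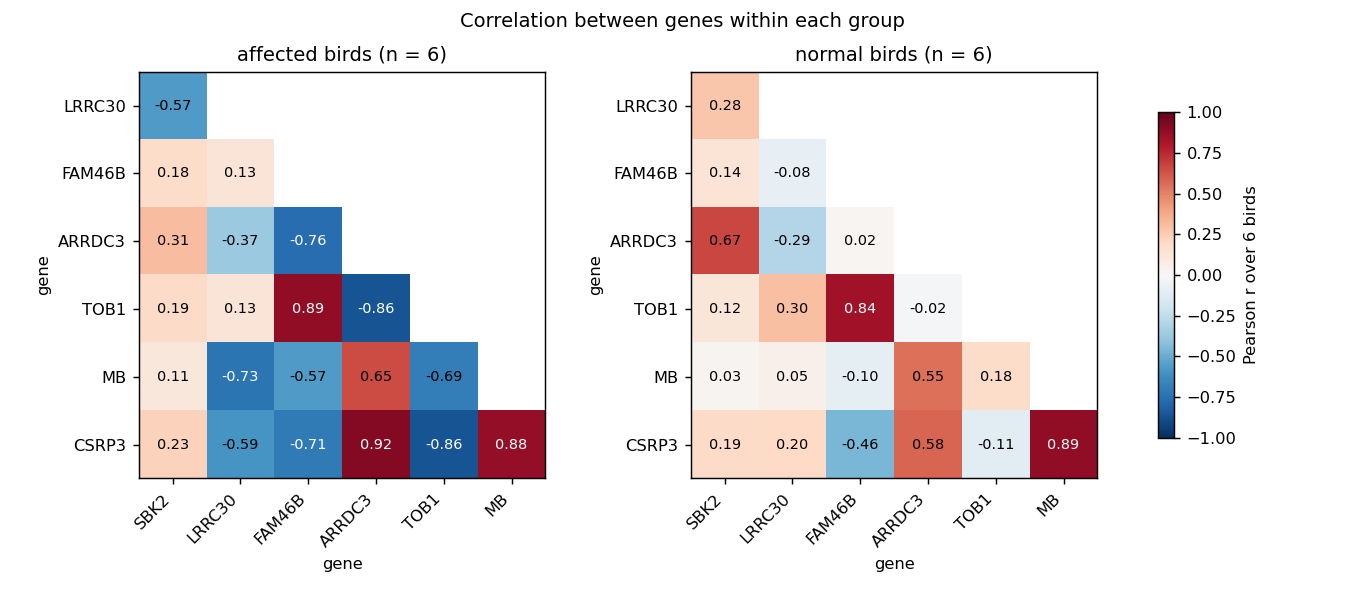
Pearson r (colour and printed value) between each pair of the 5 genes, MB and CSRP3 over the 6 affected birds (left) and the 6 normal birds (right). FAM46B with TOB1 is at 0.89 in affected and 0.84 in normal birds, while ARRDC3 with TOB1 is at -0.86 in affected and -0.02 in normal birds.

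FAM46B and TOB1, whose products act in opposite ways on poly(A) tails, had a positive r in both groups. It was 0.89 in affected birds (exact permutation p = 0.0333, adjusted 0.263, rho 0.66 with exact p = 0.175) and 0.84 in normal birds (exact permutation p = 0.0472, adjusted 0.283, rho 0.66 with exact p = 0.175). In affected birds the relation rested on the outer birds: without the 2 birds farthest from the median of FAM46B, r was 0.24. These were affected birds 1 and 5, the highest for both genes. In normal birds r was -0.25 without birds 1 and 5, both with W transcripts, and bird 1 was the lowest for both genes. Normal bird 6 (6.86) was about as far from the FAM46B median of 6.64 as normal bird 5 (6.42). The value of -0.25 therefore depends on which of them is left out, and whether the normal relation rested on outer birds is not settled. All 3 normal birds with W transcripts lay below the 3 without for FAM46B, so in the normal group r and the W transcripts cannot be told apart.

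ARRDC3 was low in the affected birds in which TOB1 was high, with r = -0.86 (exact permutation p = 0.00417, adjusted 0.0875) and rho = -0.94 (exact p = 0.0167, adjusted 0.175). Without the 2 birds farthest from the median of ARRDC3, r was -0.83. In normal birds r was -0.02 (exact permutation p = 0.954), and the difference between the groups was not tested. For ARRDC3 with FAM46B in affected birds r was -0.76 (exact permutation p = 0.0556, adjusted 0.292), and r was 0.02 in normal birds (exact p = 0.944).

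In affected muscle the birds with more ARRDC3 had more CSRP3. The r was 0.92 (exact permutation p = 0.0111, adjusted 0.156) and rho 0.89 (exact p = 0.0333, adjusted 0.233). Without birds 5 and 6, the farthest from the median of ARRDC3, r was 0.97. Affected bird 4, the highest for CSRP3 at 10.24, stayed in, so this value does not show r without the outer bird of CSRP3. In normal birds r was 0.58 (exact permutation p = 0.212), and -0.90 without birds 2 and 3, the farthest for ARRDC3. Of the normal birds left, 1, 4 and 5 had CSRP3 at 5.99, 6.06 and 6.06 and bird 6 at 4.49. The -0.90 therefore rested on bird 6, and the sign in normal birds is not settled. For TOB1 with CSRP3 in affected birds the values were r = -0.86 (exact permutation p = 0.0375, adjusted 0.263) and rho = -0.94 (exact p = 0.0167, adjusted 0.175). Without birds 1 and 5, the farthest from the median of TOB1, r was -0.97, and affected bird 4 stayed in here too. In normal birds the r of TOB1 with CSRP3 was -0.11 (exact p = 0.815).

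**Figure D3:**
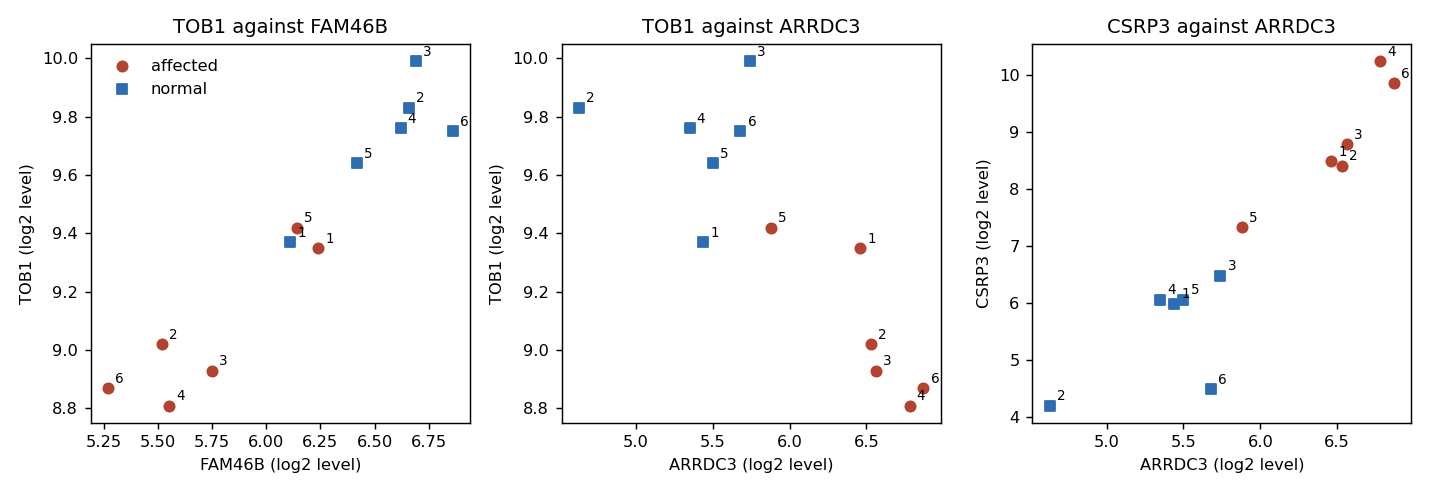
Log2 levels of TOB1 against FAM46B, TOB1 against ARRDC3, and CSRP3 against ARRDC3. Each point is 1 bird with its number, red circles affected and blue squares normal. Affected bird 5 is the lowest affected bird for ARRDC3 and CSRP3 and the highest for TOB1, and normal bird 2 is the lowest bird for ARRDC3 and CSRP3.

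The 6 affected birds stood in the same order for MB and CSRP3 (rho 1.0), so by rho MB adds nothing to CSRP3. The lower part of the MB order hangs on small gaps, with affected birds 1, 2, 3 and 5 at 6.73, 6.73, 6.79 and 6.68. Every rho of MB in affected birds shares this limit. MB had the same signs of r as CSRP3 with the 5 genes in affected birds. Its r was 0.65 with ARRDC3 (exact permutation p = 0.161), with rho 0.89 (exact p = 0.0333, adjusted 0.233). Without birds 5 and 6, the farthest from the median of ARRDC3, r was 0.96. With TOB1 r was -0.69 (exact permutation p = 0.0694), with rho -0.94 (exact p = 0.0167, adjusted 0.175). Without birds 1 and 5, the farthest from the median of TOB1, r was -0.92. Affected bird 4, the highest for MB at 8.28, stayed in both times, so these values do not show r without the outer bird of MB. The r of MB was -0.57 with FAM46B (exact p = 0.228) and -0.73 with LRRC30 (exact p = 0.0986). LRRC30 and ARRDC3, which were both higher in affected muscle, had r = -0.37 with each other in affected birds (exact permutation p = 0.531) and -0.29 in normal birds (exact p = 0.651). In affected birds the r of SBK2 farthest from 0 was that with LRRC30, at -0.57 (exact permutation p = 0.236). In normal birds SBK2 reached 0.67 with ARRDC3 (exact p = 0.104). With W transcripts in 3 of the 6 normal birds, neither part of that group holds enough birds for a separate r.

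The bird-to-bird pattern of each gene was also set beside that of 6627 named genes above the median level, as the Pearson r of deviations from the group means over the 12 arrays. Picking the extremes of so many genes gives high values by itself, so these are descriptions with no p. TOB1 was closest to FAM98A (0.95), KLHL29 (0.93), MCTS1, a translation re-initiation factor (0.93), and COX4I1, a subunit of cytochrome c oxidase (0.92), and farthest from TMEM43 (-0.89) and CLASP2 (-0.89). FAM46B was closest to RRAS, a small GTPase (0.90), SLCO3A1 (0.90), IGFBP3, a binding protein of insulin-like growth factors (0.90), and DENND4A (0.88), and farthest from PLBD1 (-0.86) and FRMD6 (-0.84). TOB1 itself stood at 0.87 with FAM46B, position 8 among those genes, and CSRP3 at -0.61 with FAM46B. Seen from TOB1, FAM46B was at position 23. The limits given above for this pair, the outer birds and the W transcripts, hold for the 0.87 as well.

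ARRDC3 was closest to FAM126A (0.93), COL5A1, a fibril collagen chain (0.93), CD47, a cell surface protein (0.92), and F3, tissue factor (0.92). The lowest values were those of NOL12 (-0.90) and AMDHD2 (-0.90), and CSRP3 stood at 0.74, position 229. COL5A1 was at r = 0.91 with ARRDC3 in affected and 0.96 in normal birds. It was picked by its r over these same birds, so high values in both groups are no separate support. ARRDC3 in normal bird 2 (4.63) stood apart from its group, and r with COL5A1 without that bird was not computed. Whether these values follow the fibroblast marker list was not tested. LRRC30 was closest to MDM1 (0.92), MED28, a Mediator subunit (0.88), MAP2K4, a stress kinase (0.84), and CUL5, a ubiquitin ligase scaffold (0.82), and farthest from TGIF1 (-0.81) and ISLR (-0.81). SBK2 was closest to CASP8AP2 (0.89), HIST1H2A4L1, a histone gene (0.89), RIF1, a telomere and replication timing protein (0.83), and PITPNA (0.82), and farthest from CCM2 (-0.85) and AGPAT5 (-0.83). For SBK2 no other of the 5 genes came nearer than position 549, held by ARRDC3 at 0.46. FAM46B and TOB1 were each other's nearest among the 5.

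Relatives and partners of the 5 genes, from 9 lists, were compared between the groups in limma's fit, with p adjusted over all 20804 clusters. Of 69 measured relatives 2 rose and none fell, a share of 2.90% beside the background of 1.14%. At an unadjusted p under 0.05 there were 22 (31.9%), against 22.1% of all clusters. The median difference was 0.06 over the 69, against -0.03 over all clusters, and without the arrays with W transcripts it was -0.06 over the 69. Nothing particular to these relatives is read from shares this close to the background.

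The 2 that rose were PABPC1 and CNOT8, a deadenylase subunit. PABPC1, the cytoplasmic poly(A)-binding protein, had 10.82, 10.90 and 11.11 as lowest, median and highest level in affected birds, against 10.11, 10.40 and 10.66 in normal birds. The groups did not overlap, and the difference was 0.52 ± 0.09 (SE, 1.43-fold, adjusted p = 0.0321). Of its other clusters, 1 differed by 0.70 (adjusted p = 0.0316) and 1, at a mean of 5.53 in affected and 5.50 in normal birds, by 0.03 (adjusted p = 0.949). CNOT8 had 4.98, 5.07 and 5.39 in affected birds, against 4.41, 4.57 and 4.92 in normal birds, and its groups did not overlap either. The difference was 0.50 ± 0.10 (SE, 1.42-fold, adjusted p = 0.0389).

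Both calls were lost on leaving out 1 bird in most cases, and the count of all clusters called moved from 1 to 588 in the same fits. PABPC1 passed in 5 of the 12 fits that leave out 1 bird and CNOT8 in 3. PABPC1 was lost without affected bird 2, 3, 4 or 6 or normal bird 1, 3 or 4, and CNOT8 without affected bird 2, 3, 4, 5 or 6 or normal bird 1, 2, 3 or 4, at adjusted p of up to 0.0887 and 0.0905. Without the arrays with W transcripts the adjusted p was 0.0857 for PABPC1, at a difference of 0.58, and 0.101 for CNOT8, at 0.57. Over the 18 alternatives the adjusted p ran from 0.0219 to 0.0887 for PABPC1 and from 0.0303 to 0.101 for CNOT8.

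**Figure D4:**
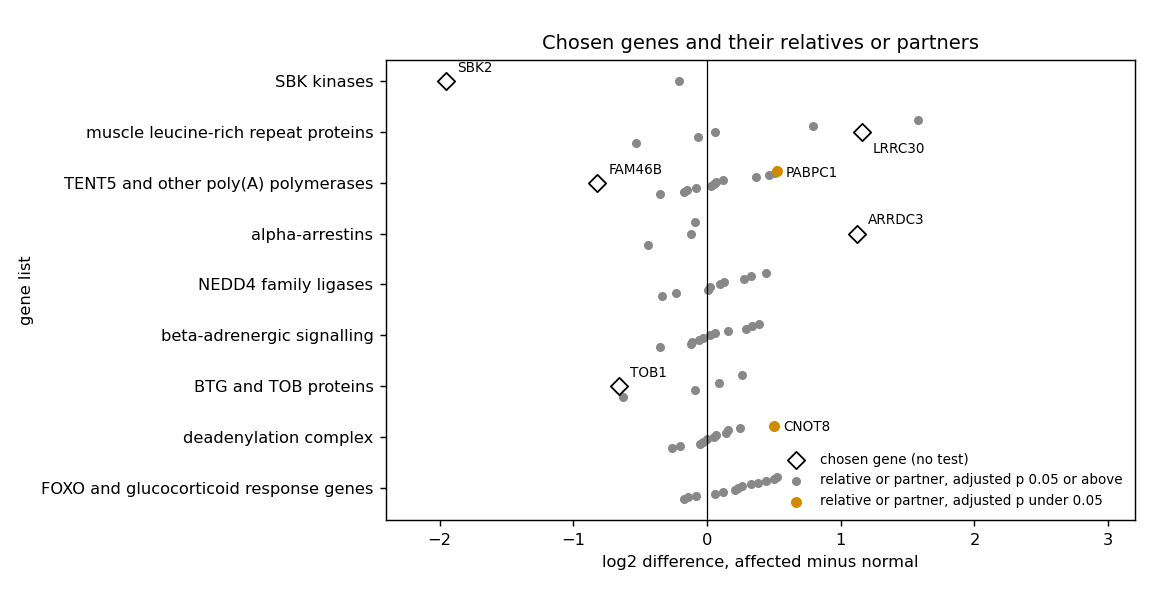
Log2 difference, affected minus normal (x axis), of the 5 chosen genes (open diamonds, no test) and of the measured members of 9 lists of relatives and partners (points, 1 per gene, 1 row per list). PABPC1 and CNOT8 are the relatives at an adjusted p under 0.05, and the differences of the relatives run from -0.63 to 1.58.

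Around each gene, the closest relatives had differences of their own that did not pass. In the kinase family SBK1 was at 3.44 in affected and 3.65 in normal muscle (difference -0.21 ± 0.10 SE, adjusted p = 0.226), below the array medians of 4.05 to 4.16. Among 5 measured leucine-rich repeat proteins LRRC20 had a difference of -0.53 ± 0.12 (adjusted p = 0.0553). LMOD2, an actin filament protein of the sarcomere, was at 1.58 (adjusted p = 0.079) and LRRC2 at 0.79 (adjusted p = 0.105), both named after their values were seen. LRRC2 was at 0.29 (adjusted p = 0.497) when the 3 normal birds with W transcripts were left out.

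The other TENT5 enzymes did not share the direction of FAM46B in a uniform way. FAM46A was at 0.51 (adjusted p = 0.0689), FAM46C at 0.05 (adjusted p = 0.864) and FAM46D at -0.15 (adjusted p = 0.236), all named here as relatives and not by their p. FAM46D was dim, with means of 2.25 in affected and 2.40 in normal muscle against array medians of 4.05 to 4.16, so its direction says little. Their list had 12 measured genes, among them poly(A)-binding proteins and the uridylyltransferases ZCCHC6 and ZCCHC11. Over these 12 the median difference was 0.06, and -0.05 without the arrays with W transcripts, with 1 called higher and none lower over all arrays. The 3 other measured alpha-arrestins had differences below 0 where ARRDC3 was at 1.12: ARRDC2 at -0.44 ± 0.15 (SE, adjusted p = 0.128; -0.68 when the 3 W-positive birds were left out), ARRDC4 at -0.12 (adjusted p = 0.819) and ARRDC1 at -0.09 (adjusted p = 0.658).

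ARRDC3 couples to ligases of the NEDD4 family, and of 9 measured genes for such ligases and their adaptors NDFIP1 and NDFIP2 none passed. NEDD4 itself was not among the 9. NEDD4L had the smallest p, with a difference of 0.44 ± 0.14 (SE, adjusted p = 0.0989) and of 0.22 without the arrays with W transcripts, and the list's median was 0.10. Of 11 measured genes of beta-adrenergic signalling none passed, with a median of 0.02, and ADCY7, an adenylyl cyclase, at 0.34 ± 0.13 (SE, adjusted p = 0.162). ADCY7 had means of 3.70 in affected and 3.37 in normal muscle, below the array medians.

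In the BTG/TOB family none of the 4 other measured members passed. BTG1 was at 0.26 ± 0.12 (SE, adjusted p = 0.21), TOB2 at 0.09 (adjusted p = 0.773; -0.16 when the 3 W-positive birds were left out) and BTG4 at -0.09 (adjusted p = 0.541). BTG4 was dim, with means of 2.21 in affected and 2.30 in normal muscle, below the array medians, so its direction says little. BTG2 was at -0.63 (adjusted p = 0.219), with an SE of 0.29, and at -1.07 (adjusted p = 0.116) without the arrays with W transcripts. Of 11 measured deadenylation genes only CNOT8 was called, and its paralogue in the complex, CNOT7, was at -0.05 (adjusted p = 0.763; 0.05 when the 3 W-positive birds were left out). Of 13 measured FOXO and glucocorticoid response genes none passed, with BCL6, a transcriptional repressor, at 0.50 ± 0.14 (SE, adjusted p = 0.0827) and a list median of 0.23 from 10 positive and 3 negative differences. Without the arrays with W transcripts that list had 5 positive and 8 negative differences and a median of -0.13.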

How the data were processed

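The RNA (150 ng of total RNA per bird) was labelled with an Affymetrix whole-transcript kit and read on 1 array for each bird, per the labels' protocols. Partek is the software in the submitters' processing notes. How the background was corrected, how features were summarized and which genome build was used is not given in the sources used here. As for the unit, the values the authors deposited are taken as log2 expression per transcript cluster, a base inferred from their range of 1.04 to 12.89. The number of arrays, 6 per group, limits the precision.

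Symbols came from the platform annotation and were brought up to date by Entrez ID from a RefSeq gene table (GRCg7b), which served for names and for Z linkage alone. Of 20804 clusters 12300 had 1 symbol, 256 several and 8248 none listed here, and 11727 matched by Entrez ID. The brightest cluster stood for a gene. Groups came from the phenotype label, and replicate numbers follow deposition order and pair no birds. Title numbers were 11 to 20 for affected and 1 to 10 for normal birds, so an order effect and the phenotype cannot be told apart.

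Differences, affected minus normal, were fitted over all clusters by limma (version 3.58.1; R version 4.3.3; lmFit, eBayes) with Benjamini-Hochberg adjustment and a threshold of 0.05, after the script had been tested on simulated data. Figures used matplotlib 3.10.9. The members and lists were chosen with earlier results of these data known. Named by rule were the 5 genes with MB and CSRP3, up to 4 called genes of each list or else the gene with the smallest p, and for each gene the 4 genes most like it and the 2 least like it, without placeholder symbols. Other relatives were named outside this rule: LMOD2, LRRC2, FAM46A, FAM46C, FAM46D, ARRDC1, ARRDC4, TOB2, BTG2, BTG4, CNOT7, ZCCHC6 and ZCCHC11. The alternatives tried were median centring, quantile normalization, a filter on dim clusters, a variance trend, array weights, Spearman's rho, leaving out each bird, and leaving out arrays with HINTW above 6.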

Additional observations from a re-analysis of the deposited data

Results flagged for a closer look

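Among 32 groups of 6 birds, taken from the genes named by rule, 2 held a bird far from its group. Chance gives about 1 in 20 groups, so a count of 2 among 32 is close to that rate. ARRDC3 in normal bird 2 was at 4.63, and the nearest other normal bird was at 5.35, a gap of 0.65 of the group's range. ARRDC2 in affected bird 1 was at 4.75, with the nearest affected bird at 4.49, a gap of 0.63 of the range.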

How the results depend on the processing

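The 5 differences kept their direction in all 75 refits and moved by less than the spread between birds. The genes were chosen for these differences on the same arrays. A group mean can move by only part of that spread when 1 bird is left out, so those refits could not have exceeded it. Rescaling the arrays moved the median difference of all clusters only from -0.03 to -0.01. The count of 75 is therefore a description and no independent check of the differences. Leaving out 1 bird gave ranges of -2.27 to -1.73 for SBK2, 1.04 to 1.27 for LRRC30, -0.92 to -0.72 for FAM46B, 0.97 to 1.25 for ARRDC3 and -0.73 to -0.60 for TOB1. Each gene had 1 cluster, so a mean over its clusters could not be tried. The count of all clusters called, 238, was 455 with clusters above the median level only, 3 without the arrays with W transcripts, and from 1 to 588 when 1 bird was left out. The count of relatives called, 2, was 0 without the arrays with W transcripts and from 0 to 3 when 1 bird was left out. The count of correlated pairs was 0 after quantile normalization, median centring and by Spearman's rho. No paired analysis was possible because the labels give no number that birds of both groups share.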
